A study of Mus musculus with 4 samples.

Results

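The genes of the apoptotic caspases and the apoptosome, 7 in all, were followed in bulk RNA-seq of sorted brain cells: the caspase genes Casp2, Casp6, Casp8 and Casp9, the apoptosome scaffold gene Apaf1, the cytochrome c gene Cycs and Diablo, whose product is also known as Smac. The members were listed by name and found by symbol, 7 of the 52636 genes with a value. The cells came from the corpus callosum, the tract of myelinated fibres that joins the cerebral hemispheres, in animals labelled Mertk-knockout and fed 0.2% cuprizone chow for 4 weeks. Cuprizone is a copper chelator whose feeding kills oligodendrocytes, and Mertk encodes a receptor through which phagocytes take up dying cells. There were 2 libraries of AnnexinV-positive cells, which the series calls dying, and 2 of AnnexinV-negative cells, which it calls living; annexin V binds phosphatidylserine exposed on the outer face of a cell. Mertk itself was read at 62.6 and 53.6 RPKM (reads scaled by gene length and the authors' factor per library) in AnnexinV-positive libraries. It was read at 18.8 and 29.9 RPKM in AnnexinV-negative libraries, so the knockout was not visible in the gene-level RNA of any library. The genotype is given as labelled. The labels do not say which part of the gene was altered, and values per exon were not analysed here. Every library carries the same genotype label, diet and time, so neither an untreated nor a wild-type group enters any comparison. The labels give no age, sex or strain, nor whether animals were pooled or each library had its own. The p-values therefore reflect library-to-library spread alone, which could be technical.

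Caspases are cysteine proteases made as inactive precursors and switched on by clustering or cleavage. In the mitochondrial route, cytochrome c leaves the mitochondrion and binds Apaf1, which assembles into the apoptosome and activates caspase-9, while Diablo leaves with it and binds the inhibitor of apoptosis proteins (IAPs) that hold caspases in check. Caspase-8 is the initiator that death receptors recruit and it also restrains necroptosis, caspase-2 is activated on its own platform after DNA damage or mitotic failure, and caspase-6 is an effector best known for cleaving nuclear lamins. These steps are set by protein assembly and cleavage, which RNA levels do not measure.

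The catalytic centre of every caspase lies in a short conserved stretch around its active cysteine. The coding bases of that stretch are shown because they are the conserved part of the 4 caspase members, and reads from related genes can be confused. Each line has 45 bases, 5′ to 3′, from the GENCODE vM21 transcripts (GRCm38), with the 5 codons around the catalytic cysteine in capitals; the pattern occurred 1 time in frame in each coding sequence.
Casp8: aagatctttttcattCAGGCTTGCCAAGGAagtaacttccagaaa
Casp2: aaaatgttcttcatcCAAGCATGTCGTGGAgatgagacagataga
Casp9: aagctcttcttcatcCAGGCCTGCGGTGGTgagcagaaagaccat
Casp6: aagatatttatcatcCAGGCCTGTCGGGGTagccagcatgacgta
The Casp8 stretch lies within 1 exon at chr1:58844598-58844642, plus strand, and each of the others spans 2 exons. Even so, the longest run of identical coding bases was 15, between Casp6 and Casp9, and 11 or 12 in the other pairs. No 50-base window of the Casp2 transcripts occurred in a transcript of another gene, and of the Casp6 transcripts 0.0182% did. Casp8 shared 4.37% of its windows, and 2.48% of its coding windows, with 1 pseudogene on its own chromosome, Gm20257, which was read at 0.397 to 0.529 RPKM. The RPKM values carry the authors' own scaling of each library. Apaf1 shared 0.614% of its windows with other genes and Casp9 0.855% with genes that overlap it.

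Cycs and Diablo shared far more. All 269 of its coding windows of 50 bases, 100%, also occurred in another annotated gene, as did 26.1% of all its windows. There were 11 such copies, of which 10 are annotated as processed pseudogenes and the other, Gm10053 on chromosome 19, as protein coding. The same 60 coding bases are shown for Cycs (chr6:50565511-50565570, minus strand, within 1 exon, bases 91 to 150 of the coding sequence) and for the 4 copies with the fewest differences from it, because they show how alike the closest copies are. Capitals mark bases that differ from Cycs.
Cycs: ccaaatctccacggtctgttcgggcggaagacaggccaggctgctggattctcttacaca
Gm10053: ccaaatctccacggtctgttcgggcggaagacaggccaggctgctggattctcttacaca
Gm10108: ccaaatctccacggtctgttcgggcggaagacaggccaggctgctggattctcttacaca
Gm13772: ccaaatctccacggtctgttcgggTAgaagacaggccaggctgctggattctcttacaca
Cycs-ps2: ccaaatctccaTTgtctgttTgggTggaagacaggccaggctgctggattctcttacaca
Gm10053 (chr19:24875843-24875902, plus strand) and Gm10108 (chr5:13121617-13121676, minus strand) had 0 differences from Cycs over these bases. Gm13772 (chr2:90804427-90804486, minus strand) had 2 and Cycs-ps2 (chr5:101305668-101305727, plus strand) had 4. The other 7 copies differed at 5 to 23 of the 60 positions, compared base by base without gaps. The count of 23 is for Gm2736, which carries an extra base relative to Cycs, so later positions were compared out of step. Diablo shared sequence with genes at its own locus: 37.3% of its windows lie in genes that overlap it. Gm49027, an overlapping gene on the same strand annotated as protein coding, holds 615 of the 665 coding windows of Diablo. Gm49027 was listed at 0.0584 and 0.0336 RPKM in AnnexinV-positive and 0.289 and 0 RPKM in AnnexinV-negative libraries. B3gnt4, on the opposite strand, holds none of the coding windows, but the library kit does not keep strand. B3gnt4 itself was listed at 0.135 and 0.171 RPKM in AnnexinV-positive and 0.140 and 0.290 RPKM in AnnexinV-negative libraries.

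**Figure D1:**
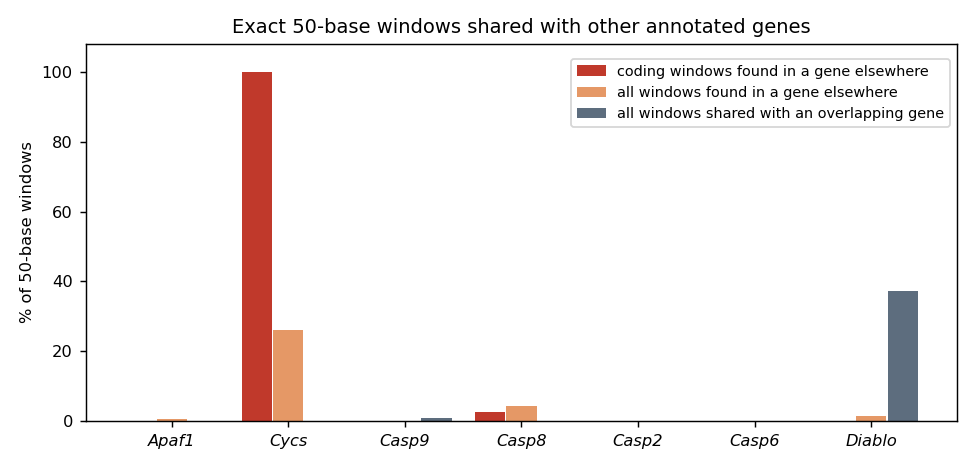
The y axis is the percentage of a gene's distinct 50-base transcript windows that occur exactly in another annotated gene. For each of the 7 genes, red bars are coding windows found in a gene at another locus, orange bars all windows found in a gene at another locus, and grey bars all windows shared with a gene at the same locus. Cycs stands apart at 100% of coding windows, and Diablo at 37.3% for overlapping genes.

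Reads in genes came to about 67.5 M and 60.1 M in AnnexinV-positive libraries 1 and 2, and 50.5 M and 43.3 M in AnnexinV-negative libraries 1 and 2, as recovered from the deposited values. Each read in 1 kb was worth 0.01011 and 0.01162 RPKM in AnnexinV-positive and 0.008325 and 0.01032 RPKM in AnnexinV-negative libraries. The deposited scale was therefore not set by these read totals alone. On the deposited scale, markers of mature oligodendrocytes, such as Mog and Mobp, were lower in 15 of 15 cases. Their summed level was 35.0 to 47.3 RPKM in AnnexinV-positive against 536 to 978 RPKM in AnnexinV-negative libraries. Some of them, Mog and Mobp included, reached the minimum for testing given below only through the AnnexinV-negative libraries. With every library rescaled to the same RPKM total (the TPM scale), they were also lower in 15 of 15 cases. Homeostatic microglia markers, such as P2ry12 and Tmem119, were higher in 14 of 14 cases as deposited, with a median log2 fold change of 1.24. They summed to 5709 and 5711 RPKM in AnnexinV-positive against 2228 and 2711 RPKM in AnnexinV-negative libraries. On the TPM scale only 1 of the 14 was higher and 0 lower, with a median of 0.46. Disease-associated microglia genes were higher in 12 of 12 as deposited. On the TPM scale 5 of the 12 were higher and 0 lower, with a median of 0.67. As deposited, 8 of 10 tested markers of astrocytes, 6 of 7 of oligodendrocyte precursors and 6 of 8 of endothelial cells were lower. So were 2 of 3 of neurons and 1 of 2 of T or NK cells. Of 3 for neutrophils, 1 was higher and 2 were lower. No listed marker was at 0 in all libraries. In bulk samples, fewer cells of a type and less RNA per cell cannot be told apart, and this holds for every difference described here. The deposited RPKM summed to 200.3 k and 217.8 k in AnnexinV-positive against 122.9 k and 120.7 k in AnnexinV-negative libraries. Values of the members and pathway genes on other scales are given below.

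Of the 7 members, 6 reached the minimum for testing, an RPKM of 1 in at least 2 libraries, and Cycs did not. Casp8 and Casp6 were higher in AnnexinV-positive cells on the deposited scale (limma, threshold 0.05 on the p adjusted by Benjamini-Hochberg across the 10927 genes tested), although Casp6 was at -0.04 on the TPM scale described below and -0.40 relative to microglia markers. The homeostatic microglia markers were also higher in the same libraries as deposited, with a median log2 fold change of 1.24 (0.46 on the TPM scale). With libraries centred on these markers neither gene passed. These are 2 of 6, where 40.0% of all genes tested were called and 30.8% were called higher. None was called lower by limma, where 9.26% of all genes were; at an unadjusted p under 0.05, 3 were higher and 1, Casp2, was lower. The share of calls among the members was therefore close to the background, and the members' median log2 fold change was 0.53 beside 0.45 over all genes tested. What set the members apart from each other was the spread of their fold changes, with Casp8 at the 97.2th percentile of all log2 fold changes and Casp2 at the 10.5th.

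**Figure D2:**
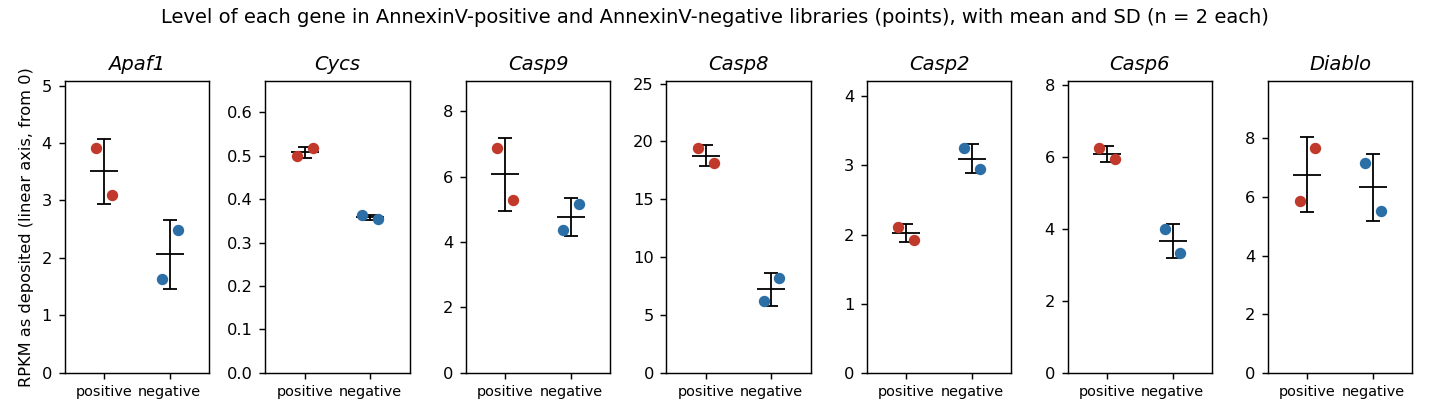
Each panel is 1 gene, and the y axis is its RPKM as deposited, on a linear axis that starts at 0 and differs between panels. Points are libraries (red AnnexinV-positive, blue AnnexinV-negative) and bars are mean and SD (n = 2 each). Casp8 has the widest gap, with AnnexinV-positive libraries at 19.4 and 18.1 and AnnexinV-negative libraries at 6.22 and 8.23; in Casp2 the AnnexinV-negative libraries are the higher ones, and in Diablo the groups overlap.

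Cycs (ENSMUSG00000063694, chromosome 6, 50562563 to 50566538, minus strand, GRCm38) encodes the electron carrier that binds Apaf1 once it is outside the mitochondrion. It had 0.499 and 0.517 RPKM in AnnexinV-positive libraries, against 0.363 and 0.354 RPKM in AnnexinV-negative libraries, or 117 to 168 reads in a library. Both AnnexinV-positive libraries lay above both AnnexinV-negative ones on this scale. These levels sit far below those of genes whose products work beside cytochrome c in the respiratory chain: Cyc1, the cytochrome of the same complex III that feeds it, had 34.6 and 41.0 RPKM in AnnexinV-positive and 32.2 and 27.4 RPKM in AnnexinV-negative libraries. Hccs, the enzyme that attaches heme to cytochrome c, had 7.96 and 6.75 RPKM in AnnexinV-positive and 7.60 and 5.89 RPKM in AnnexinV-negative libraries. All coding windows of Cycs occur elsewhere in the genome, as shown above, and how the authors' counting treated such reads is not given in the sources used here. With the 11 copies added, the listed values summed to 3.19 and 3.28 RPKM in AnnexinV-positive and 3.25 and 1.68 RPKM in AnnexinV-negative libraries. In this sum the groups overlapped. Any reads left out for matching several places would be missing from the sum too, so it sets no upper limit. The value listed for Cycs is therefore uncertain as a level of cytochrome c RNA. In a fit that kept every gene with an RPKM of 0.1 in 2 libraries, its log2 fold change was 0.41 (95% interval -0.29 to 1.10, limma adjusted p = 0.357).

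Diablo (ENSMUSG00000029433, chromosome 5, 123509765 to 123524176, minus strand) encodes the mitochondrial protein that frees caspases from IAPs. It had 5.85 and 7.65 RPKM in AnnexinV-positive libraries, against 7.14 and 5.52 RPKM in AnnexinV-negative libraries. Each group held 1 low and 1 high library, and the groups overlapped. Its log2 fold change was 0.091 (95% interval -0.44 to 0.63, limma adjusted p = 0.757), an interval that holds differences in either direction. Its level is uncertain to the extent that reads of the coding windows shared with Gm49027 were left out or divided, which is not given in the sources used here.

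Apaf1 (ENSMUSG00000019979, chromosome 10, 90989311 to 91082770, minus strand) encodes the scaffold of the apoptosome. It had 3.91 and 3.10 RPKM in AnnexinV-positive libraries, against 1.64 and 2.49 RPKM in AnnexinV-negative libraries. The groups did not overlap, but the libraries within each group lay farther apart than the nearest libraries of different groups. Its log2 fold change of 0.76 (SE 0.26, 95% interval 0.13 to 1.38) did not pass (limma adjusted p = 0.0570). It passed in 2 of 15 alternative fits, among them the fit without AnnexinV-negative replicate 2, at 1.04 (limma adjusted p = 0.0139), and was 0.47 without AnnexinV-negative replicate 1 (limma adjusted p = 0.181).

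Casp9 (ENSMUSG00000028914, chromosome 4, 141793612 to 141815976, plus strand) encodes the initiator caspase that the apoptosome activates. It had 6.86 and 5.27 RPKM in AnnexinV-positive libraries, against 4.36 and 5.17 RPKM in AnnexinV-negative libraries. The lower AnnexinV-positive library lay just above the higher AnnexinV-negative one. Its log2 fold change was 0.33 (95% interval -0.18 to 0.84, limma adjusted p = 0.239).

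Casp8 (ENSMUSG00000026029, chromosome 1, 58795374 to 58847503, plus strand) encodes the initiator recruited by death receptors. It had 19.4 and 18.1 RPKM in AnnexinV-positive libraries, against 6.22 and 8.23 RPKM in AnnexinV-negative libraries, from 2160 to 5550 reads. Every AnnexinV-positive library was more than 2 times as high as every AnnexinV-negative one. Casp8 rose by 1.38 on the log2(RPKM + 0.1) scale (SE 0.20, limma adjusted p = 0.00403), 2.60-fold, and was called higher in 13 of 15 alternative fits, the exceptions being the TPM scale and centring on microglia markers. Casp8 averaged 18.8 ± 0.891 RPKM in AnnexinV-positive and 7.22 ± 1.43 RPKM in AnnexinV-negative cells (SD, n = 2 each).

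Casp2 (ENSMUSG00000029863, chromosome 6, 42264985 to 42282508, plus strand) encodes the initiator activated by the PIDDosome, a complex of Pidd1 and Cradd. It had 2.11 and 1.93 RPKM in AnnexinV-positive libraries, against 3.25 and 2.95 RPKM in AnnexinV-negative libraries, and was the one member lower in both AnnexinV-positive libraries than in both AnnexinV-negative ones as deposited. Its log2 fold change of -0.59 (SE 0.20, 95% interval -1.08 to -0.11) narrowly missed the threshold (limma adjusted p = 0.0541). The sign was negative in 15 of 15 alternative fits, and 5 of them called it lower. These were the TPM scale, the 3 centrings described below and a block on replicate numbers crossed between the groups. The crossed block and the centring on the median log2 ratio were added after seeing the data. The rescalings lower all genes together, so they could not turn this sign and move any gene toward a call lower. With the replicate number as an uncrossed block, Casp2 did not pass (limma adjusted p = 0.125). Its partners had the opposite sign as deposited, though on the TPM scale Cradd was at 0.10 and Pidd1 at -0.15: Cradd, the adaptor, rose by 0.83 (limma adjusted p = 0.0244), and Pidd1 had a log2 fold change of 0.56 (limma adjusted p = 0.191).

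Casp6 (ENSMUSG00000027997, chromosome 3, 129901425 to 129914103, plus strand) encodes an effector caspase. It had 6.24 and 5.94 RPKM in AnnexinV-positive libraries, against 4.01 and 3.32 RPKM in AnnexinV-negative libraries, and the groups did not overlap. Casp6 rose by 0.72 (SE 0.20, limma adjusted p = 0.0265). It was called higher in 6 of 15 alternative fits. The call was lost without AnnexinV-positive replicate 1 (0.69), AnnexinV-positive replicate 2 (0.76) or AnnexinV-negative replicate 2 (0.59). It was also lost with the replicate number as a block (limma adjusted p = 0.0643) and with no filter on low values (limma adjusted p = 0.0649). Centred on the median of the genes tested it was at 0.41 (limma adjusted p = 0.187). Centred on the median log2 ratio it was at 0.30 (limma adjusted p = 0.346). The TPM and microglia scales, given above, did not call it either.

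On the deposited scale, both AnnexinV-positive libraries lay above both AnnexinV-negative ones for 4 of the 6 tested members and below for 1, beside 60.9% and 14.9% of all genes tested. With every library rescaled to the same RPKM total (the TPM scale), 1 was above and 3 were below, beside 12.2% and 52.1% of all genes tested. Casp8 was the one above and Casp2, Casp9 and Diablo were those below. On that scale Casp8 was at 96.8 and 83.3 in AnnexinV-positive against 50.6 and 68.2 in AnnexinV-negative libraries, in TPM, a log2 fold change of 0.61 (limma adjusted p = 0.0899). Casp2 was at 10.5 and 8.84 in AnnexinV-positive against 26.4 and 24.4 in AnnexinV-negative libraries, and fell by 1.39 (limma adjusted p = 0.00506). Cycs, above as deposited, was below on this scale, at 2.49 and 2.37 in AnnexinV-positive against 2.95 and 2.93 in AnnexinV-negative libraries. Of all genes tested, 1.03% were higher and 19.1% lower on the TPM scale, and the median log2 fold change was -0.32.

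With libraries centred on the 14 homeostatic microglia markers, Casp8 had a log2 fold change of 0.26 (limma adjusted p = 0.288). Casp2 fell by 1.72 (limma adjusted p = 0.00173), Diablo by 1.03 (limma adjusted p = 0.0191) and Casp9 by 0.79 (limma adjusted p = 0.0202), while Casp6 and Apaf1 were at -0.40 and -0.36 and did not pass. On this scale 49.4% of all genes tested were lower and 0.201% higher, so 3 of 6 members lower is close to the background. Centred on the median of the genes tested, Casp8 rose by 1.06 (limma adjusted p = 0.0135) and Casp2 fell by 0.91 (limma adjusted p = 0.0231), where 10.4% of genes were higher and 10.8% lower. Centred instead on the median log2 ratio of the genes tested, an alternative added after seeing the data, Casp8 rose by 0.96 (limma adjusted p = 0.0205) and Casp2 fell by 1.02 (limma adjusted p = 0.0167), where 6.53% were higher and 11.9% lower. Each rescaling lowered the log2 fold changes together, so Casp2, already negative as deposited, could not turn. Casp8 stayed positive on each of these scales. Casp6 turned on the TPM and microglia scales, Casp9 on the TPM, microglia and median ratio scales, Apaf1 on the microglia scale and Diablo on all of them.

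**Figure D3:**
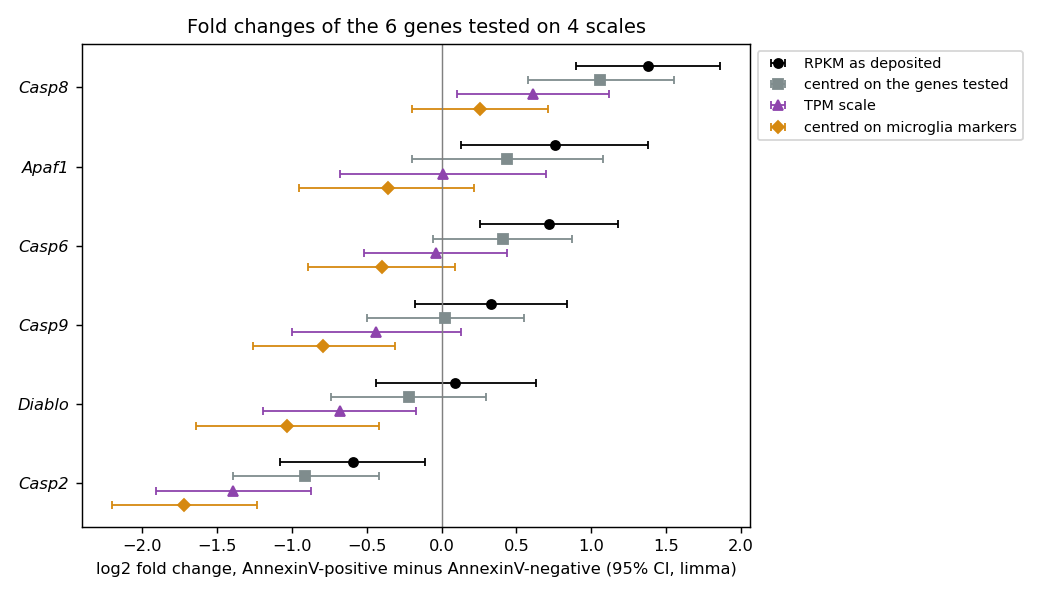
The x axis is the log2 fold change of AnnexinV-positive minus AnnexinV-negative libraries with 95% intervals from limma, for the 6 genes tested, on 4 scales marked by colour and shape. Each rescaling shifts the genes to the left together. The Casp8 estimate stays above 0 throughout, from 1.38 to 0.26, but its interval on the microglia scale, -0.20 to 0.71, includes 0. The Casp2 estimate stays below 0, from -0.59 to -1.72.

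Ratios of members within a library do not depend on its scale. The ratio of Casp8 to Casp9 was 2.83 and 3.44 in AnnexinV-positive libraries, against 1.42 and 1.59 in AnnexinV-negative libraries. The ratio of Casp2 to Casp8 was 0.109 and 0.106 in AnnexinV-positive libraries, against 0.522 and 0.358 in AnnexinV-negative libraries, a 0.248-fold difference of geometric means. The ratio of Casp2 to Casp6 was 0.338 and 0.324 in AnnexinV-positive and 0.810 and 0.888 in AnnexinV-negative libraries. The ratio of Casp6 to Apaf1 overlapped between the groups, at 1.6 and 1.91 in AnnexinV-positive and 2.45 and 1.34 in AnnexinV-negative libraries. Of the 15 pairs of tested members, 11 had ratios that did not overlap between groups, including all 5 with Casp2 and all 5 with Casp8, beside 62.8% of all pairs of genes tested. These ratios are given as a description and were not tested.

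The 7 genes summed to 44.9 and 42.5 RPKM in AnnexinV-positive against 27 and 28 RPKM in AnnexinV-negative libraries. Casp8 made up 43.2% and 42.6% of the sum in AnnexinV-positive against 23.0% and 29.4% in AnnexinV-negative libraries. Casp2 made up 4.70% and 4.53% in AnnexinV-positive against 12% and 10.5% in AnnexinV-negative libraries. Casp8 had the highest level per length in 3 of the 4 libraries, with Diablo first in AnnexinV-negative library 1. Casp9, Casp6 and Diablo followed within each other's spread in AnnexinV-positive libraries, and Casp2 and Apaf1 changed places: Apaf1 lay above Casp2 in both AnnexinV-positive libraries and below it in both AnnexinV-negative ones.

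**Figure D4:**
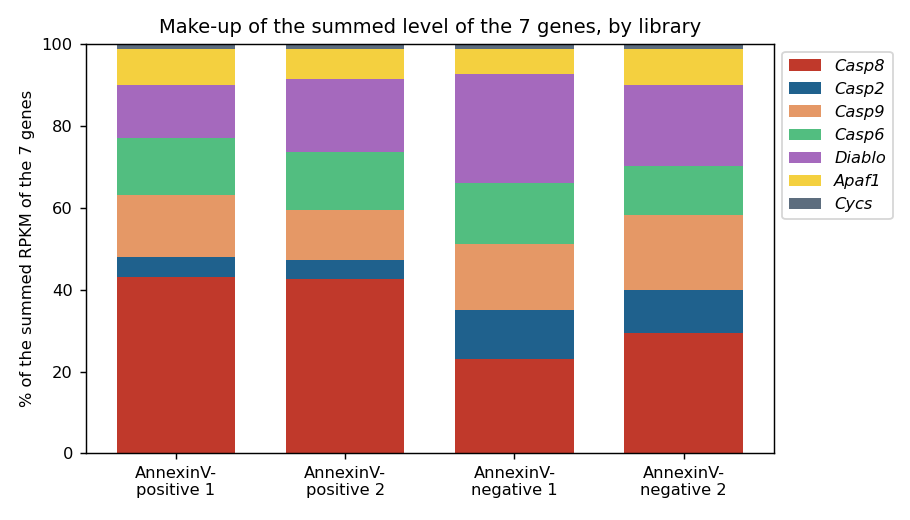
Each bar is 1 library and its segments give the percentage of the summed RPKM of the 7 genes that each gene holds. The Casp8 segment is 43.2% and 42.6% in AnnexinV-positive libraries, against 23.0% and 29.4% in AnnexinV-negative libraries, and the Casp2 segment is the smaller one in AnnexinV-positive libraries.

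The promoters of Casp8 and Casp6, the members called higher, are shown from RefSeq (GRCm38.p6), each from 250 bases before to 50 after the annotated start. Capitals mark matches to any of 9 short motifs searched on both strands.
Casp8, chr1:58802252-58802551, plus strand: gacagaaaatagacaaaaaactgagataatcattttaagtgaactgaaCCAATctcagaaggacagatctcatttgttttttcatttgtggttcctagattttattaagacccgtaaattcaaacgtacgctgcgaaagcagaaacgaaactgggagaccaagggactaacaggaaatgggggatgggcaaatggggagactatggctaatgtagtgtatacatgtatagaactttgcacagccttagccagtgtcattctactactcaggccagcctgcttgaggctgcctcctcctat
Casp6, chr3:129901165-129901464, plus strand: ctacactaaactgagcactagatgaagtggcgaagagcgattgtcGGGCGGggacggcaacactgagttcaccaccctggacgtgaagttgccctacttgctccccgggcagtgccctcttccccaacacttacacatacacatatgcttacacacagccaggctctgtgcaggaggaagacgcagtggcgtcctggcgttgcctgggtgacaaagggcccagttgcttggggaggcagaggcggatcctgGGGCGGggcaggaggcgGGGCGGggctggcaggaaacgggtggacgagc
The RefSeq start of Casp8 lies downstream of the start of the GENCODE gene, so this window covers 1 of its annotated starts. Casp8 had the promoter poorest in G and C, at 42.0% with 5 CpG dinucleotides, beside a median of 52.7% and 7 over 32851 promoters in the table. The other 6 ranged upward from Casp6, at 62.0% and 16, to Apaf1, at 74.7% and 46. The capitals in Casp8 are 1 CCAAT box (CCAAT), which 37.4% of all promoters held, and those in Casp6 are 3 GC boxes (GGGCGG), which 35.7% held; no matches overlapped in these windows. The ETS motif CCGGAAG (8.86% of all promoters), the PU.1 motif GAGGAAGT (3.2%), the cyclic AMP response element TGACGTCA (1.79%), the NRF1 motif (0.971%), the TATA box TATAAA (13.6%), the NF-kB motif (4.79%) and the E2F motif TTTCCCGC (1.07%) had no match in either window. A match or its absence describes the letters in the window and says nothing of a factor.

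The other genes of the pathway were followed in 11 lists of 77 genes, of which 64 were tested. By limma, 31 were higher, or 48.4% beside 30.8% of all genes, and 3 were lower, or 4.69% beside 9.26%, with a median log2 fold change of 0.67. On the TPM scale 3 of the 64 were higher and 5 lower, beside 1.03% and 19.1% of all genes tested. Centred on the microglia markers, limma called 0 higher (1 at an unadjusted p under 0.05) and 18 lower. Of all genes tested, 0.201% were higher and 49.4% lower there. The directions given next therefore hold for the deposited scale. Both tested inflammatory caspases rose, Casp4, which senses lipopolysaccharide, by 1.66 and Casp1, the inflammasome protease, by 1.46, and both still passed on the TPM scale, at 0.89 and 0.69 (limma adjusted p = 0.0189 and 0.0347). Casp4 and Casp1 had larger log2 fold changes than Casp8.

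Genes around caspase-8 rose in 4 of 6 tested cases on the deposited scale, beside 30.8% of all genes tested. On the TPM scale limma called 0 of the 6 higher or lower, with 1 lower at an unadjusted p under 0.05. Centred on the microglia markers, 0 were higher, also at an unadjusted p under 0.05, and 2 were lower. Tnfrsf1a, a TNF receptor, rose by 1.19, Cflar, a catalytically dead relative that limits caspase-8, by 1.25, Ripk1, a kinase of the same complex, by 0.91 and Tradd, an adaptor, by 0.67. Cflar had 9.39 and 9.31 RPKM in AnnexinV-positive against 3.18 and 4.73 RPKM in AnnexinV-negative libraries. Fadd, the adaptor that bridges receptor and caspase-8, did not reach the minimum, at 0.811 and 0.911 RPKM in AnnexinV-positive and 0.695 and 0.590 RPKM in AnnexinV-negative libraries. Fas and Casp8ap2 were at 0.24 and 0.026 on the log2 scale and did not pass.

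Of the 8 tested IAP family genes, the family that Diablo acts on, 4 rose: Birc3 by 1.37, Naip5 by 1.25, Naip2 by 1.15 and Birc5 by 1.15. Counts in this paragraph stand beside 30.8% higher and 9.26% lower among all genes tested. Naip2 and Naip5 are close copies and their single values are uncertain. Xiap, the direct inhibitor of caspase-9, had 1.90 and 2.27 RPKM in AnnexinV-positive against 1.17 and 1.54 RPKM in AnnexinV-negative libraries and did not pass (0.60, limma adjusted p = 0.0937), and Birc2 was at 0.49 (limma adjusted p = 0.0716). Among 6 other mitochondrial proteins and IAP antagonists 3 rose and 1 fell; Htra2, a protease that also binds IAPs, rose by 1.0 and Xaf1 by 0.79. Septin4, listed in the annotation as Sept4 and the source of an IAP-binding isoform, fell by 5.47 (limma adjusted p = 2.49e-04). It had 0.657 and 0.910 RPKM in AnnexinV-positive against 53.3 and 28.1 RPKM in AnnexinV-negative libraries. Septin4 thus reached the minimum for testing only through the AnnexinV-negative group. The mature oligodendrocyte markers were also lower in AnnexinV-positive libraries, by a median of -4.74, and their part in the Septin4 difference was not tested.

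Upstream of cytochrome c release, 4 of 9 tested genes of outer membrane permeabilisation rose and 1 fell. Counts in this paragraph stand beside the same 30.8% higher and 9.26% lower among all genes tested. Pmaip1, which encodes Noxa, rose by 1.31, Bcl2l11, which encodes Bim, by 1.18 and Bid, the substrate that links caspase-8 to mitochondria, by 0.99. Bok, a Bax relative, had 0.321 and 0.126 RPKM in AnnexinV-positive against 1.45 and 1.21 RPKM in AnnexinV-negative libraries. It reached the minimum for testing only through the AnnexinV-negative group, so its fall of 2.21 (limma adjusted p = 0.00711) is given as a description. Of 6 tested BCL2-type inhibitors 4 rose, Bcl2a1b by 1.48, Bcl2a1a by 1.39, Bcl2a1d by 1.34 and Mcl1 by 1.20; the Bcl2a1 genes are close copies with uncertain single values. Of 6 tested apoptosome regulators 4 rose, among them Hspa4 by 0.76, Anp32a by 0.82 and Hspa8 by 0.70. Of 9 tested caspase substrates and nucleases 3 rose and 1 fell. Lmnb1, a lamin, rose by 0.79, Parp1 by 0.79 and Rock1 by 0.55, and Gsn, an actin-severing protein, fell by 1.11 (limma adjusted p = 0.00826). Lmna, the other lamin listed, was at -0.41 as deposited (limma adjusted p = 0.0974). On the TPM scale Lmna was lower, at -1.19 (limma adjusted p = 0.00397), and Lmnb1 was at 0.018 (limma adjusted p = 0.95). Of 8 tested genes for cytochrome c synthesis and its respiratory partners, limma called 0, with 2 higher at an unadjusted p under 0.05. The 3 with the smallest p, Cox4i1 and Cox5a of cytochrome c oxidase and Uqcrc1 of complex III, were at 0.72, 0.52 and 0.44 (limma adjusted p = 0.0666, 0.139 and 0.0798). Cyct, the testis form of cytochrome c, was not tested, at 0.123 and 0.124 RPKM in AnnexinV-positive and 0.432 and 0.0630 RPKM in AnnexinV-negative libraries.

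**Figure D5:**
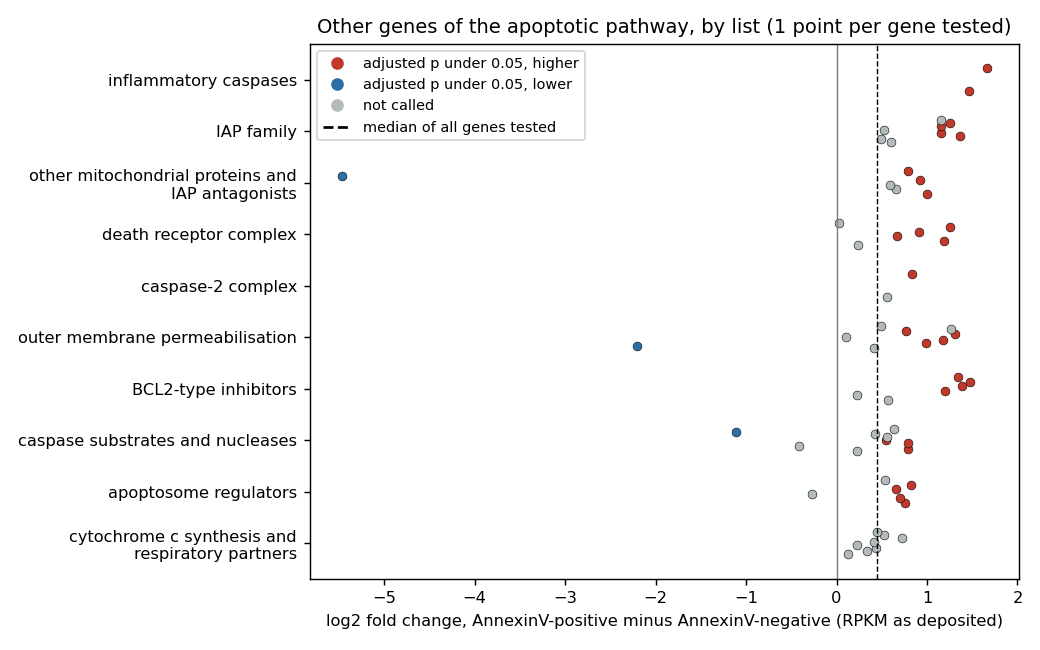
Each point is 1 tested gene, the x axis is its log2 fold change of AnnexinV-positive minus AnnexinV-negative libraries on the deposited scale, and rows are 10 of the lists. Red and blue points passed limma at an adjusted p under 0.05, higher and lower, and the dashed line is the median of all genes tested, 0.45. Most points lie right of 0, with Septin4 at -5.47, Bok at -2.21 and Gsn at -1.11 as the genes called lower. Septin4 and Bok reached the minimum for testing only through AnnexinV-negative libraries.

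The genes with profiles nearest to each tested member over the 4 libraries were found by the distance between log2 values centred on each gene's mean. For Casp8 they were Gpr160 and Tlr1, a receptor for bacterial lipopeptides, at distances of 0.0506 and 0.0556. For Casp2 they were Trim32 and Ift122 (0.0551 and 0.0571), for Casp6 Zfp984 and Esrra (0.0330 and 0.0331) and for Casp9 Cep85l and Nfatc3 (0.0513 and 0.0532). For Apaf1 they were Gak and Hif1a (0.0418 and 0.0537) and for Diablo Jagn1 and Kbtbd3 (0.0229 and 0.0299). With 4 libraries such neighbours are common: between 78 genes for Casp2 and 316 for Casp9 lay within 0.2.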

How the data were processed

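Per the labels' protocols, perfused tissue was dissociated with a neural tissue kit and libraries were made with the TruSeq RNA v2 kit. GSNAP and mm10 are named in the submitters' processing notes; the sources used here do not name the counter, annotation, gene lengths or read length. The deposited files give no unit, and their values were read as RPKM scaled by the authors per library: 79.6% to 83.6% of values worth under 100 reads lay within 0.01 of whole multiples of a step set by exonic length. Read numbers recovered from that step are approximate, and no count test was run on them. GENCODE vM21 (GRCm38) gave symbols for 52403 genes and lengths for 52489.

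Genes reaching an RPKM of 1 in 2 libraries were tested on log2(RPKM + 0.1), which understates changes of low genes. The test was limma 3.58.1 (R 4.3.3, trend on, no covariate), positive over negative. It was also run on simulated data with as many genes raised as lowered. Those data held no overall shift between groups, so that run did not check the choice of scale. The members and lists were chosen with earlier results of these data known. Named genes were the members, their direct partners, the 3 genes with the smallest p in each of 11 pathway lists and the 2 nearest profiles per member. Tradd, Fas, Casp8ap2, Xaf1, Bcl2l11, Mcl1, Rock1, Lmna and Cyc1 fall outside that rule and were chosen after their values were seen. A few genes that the rule names are not reported here. Shared sequence was sought as exact windows of 50 bases in all GENCODE vM21 transcripts.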

Additional observations from a re-analysis of the deposited data

How the results depend on the processing

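The counts over all genes, members and pathway genes were refitted under 15 alternatives, of which centring on the median log2 ratio of the genes tested and a crossed replicate block were chosen after seeing the data. The main fit called 3364 genes higher and 1012 lower, 2 members higher and 0 lower, and 31 pathway genes higher and 3 lower.

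On the TPM scale, 113 genes were higher and 2091 lower, 0 members higher (1 at an unadjusted p under 0.05, limma) and 1 lower, and 3 pathway genes higher and 5 lower. Centred on the microglia markers, 22 genes were higher and 5393 lower, 0 members higher (0 at an unadjusted p under 0.05, limma) and 3 lower, and 0 pathway genes higher (1 at an unadjusted p under 0.05, limma) and 18 lower. Centred on the median of the genes tested, 1133 genes, 1 member and 16 pathway genes were higher and 1 member was lower. Centred on the median log2 ratio, 713 genes, 1 member and 10 pathway genes were higher and 1 member was lower. With no filter on low values, 1865 genes, 1 member and 17 pathway genes were higher and 2489 genes lower. With a minimum of 0.1 RPKM, 3913 genes and 5 pathway genes were lower. Leaving out 1 library gave 1297 to 3356 genes higher and 787 to 1060 lower, 1 to 2 members higher and 0 lower, and 13 to 29 pathway genes higher and 3 lower. The lowest counts of genes higher came without AnnexinV-positive replicate 2 (1297) and replicate 1 (1749).

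Directions turned for Casp6 on the TPM (-0.04) and microglia (-0.40) scales, for Casp9 on the TPM (-0.44), microglia (-0.79) and median ratio (-0.088) scales, and for Apaf1 on the microglia scale (-0.36). Diablo turned on the centred (-0.22), TPM (-0.68), microglia (-1.03) and median ratio (-0.33) scales, and without AnnexinV-positive replicate 2 (-0.10) or AnnexinV-negative replicate 2 (-0.092), within a range of -0.10 to 0.28 over the libraries left out. The turns on the rescaled values follow from each rescaling lowering the log2 fold changes together. The cause of the turns of Diablo with a library left out was not tested.

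The groups share replicate numbers, but the labels do not say that a number marks a shared animal or day, and the deviations of same-numbered libraries correlated at -0.215 across genes. With the replicate block, 1 member was higher, 2443 genes were higher and 957 lower. With the numbers crossed, 4891 genes were higher and 1136 lower, 3 members were higher and 1 lower, and 42 pathway genes were higher and 4 lower. Each group has 2 libraries, and Cycs, below the RPKM minimum, rests on 117 to 168 reads in a library; the parts of read depth and library spread in the error were not compared.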
